A study of Mus musculus with 17 samples.

Results

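The comparison set the kidneys of all 12 db/db mice, untreated and dapagliflozin-treated mice pooled by genotype, against the kidneys of 5 healthy mice. Its units were regions of open chromatin. Each of the 17 libraries contributed its 29702 highest-scoring peak summits, which is the length of the shortest list, each summit was extended by 250 bp to both sides, and overlapping summits were merged over the libraries. Of 116476 merged regions, 52395 held a summit of at least 2 libraries and were kept as consensus regions. In 27409 of these, the number of libraries with a summit allowed an unadjusted p under 0.05, and these are called the tested regions. The libraries are all 17 of the series.

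The series profiled open chromatin by ATAC-seq, which cuts accessible DNA with a transposase, from 20000 cells per kidney sample. The Ctrl group held 5 male wild-type C57BL/6 mice. The Case group held 6 male db/db mice on the BKS background, homozygous for Leprdb, and the Dapa group held 6 such mice given 1 mg/kg/day of dapagliflozin for 6 weeks, while Ctrl and Case mice received saline. All mice were 8 weeks old at the start. Libraries Db 1 to Db 6 are the Case mice and Db 7 to Db 12 the Dapa mice. Genotype, diabetes and background strain (C57BL/6 against BKS) change together in this design and cannot be told apart, and every db/db group was set against the same 5 Ctrl mice. The tissue was whole kidney, so that fewer cells of a type and less open chromatin per cell cannot be told apart either.

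The db mutation truncates the leptin receptor encoded by Lepr, and homozygous mice overeat, become obese and develop hyperglycaemia followed by albuminuria. Dapagliflozin inhibits the sodium-glucose cotransporter encoded by Slc5a2, which takes glucose back from the filtrate in the proximal tubule. Open chromatin marks promoters and distal regulatory elements, and the distal ones differ more between cell types than promoters do.

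Sequences of 5 regions that separated the genotypes completely are shown first, as examples and not as typical sequences. Each line gives 201 bases around the centre of the region on the plus strand of mm10. The first 3 come from regions present in all Ctrl and no db/db mice, and the last pair from the only regions present in all db/db and no Ctrl mice. None of the first 3 is intergenic, whereas 28 of the 50 regions of that kind are. Most of the sequences read held no match to a motif searched. Capitals mark a match to the AP-1 motif TGANTCA in Acss3, a reverse-strand match to an HNF1 motif in Herc4, and a word of 12 bases that occurs 6 times in the intergenic sequence.
Gpc5 intron, chr14:116317626-116317826: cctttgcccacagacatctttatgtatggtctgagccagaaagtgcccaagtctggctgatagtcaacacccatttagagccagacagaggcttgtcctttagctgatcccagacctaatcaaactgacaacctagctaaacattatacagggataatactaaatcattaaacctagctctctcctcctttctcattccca
Acss3 intron, chr10:107116348-107116548: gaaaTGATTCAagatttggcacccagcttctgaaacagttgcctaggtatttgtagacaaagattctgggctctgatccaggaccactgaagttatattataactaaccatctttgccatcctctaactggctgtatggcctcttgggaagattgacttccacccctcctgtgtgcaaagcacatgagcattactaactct
Herc4 promoter, chr10:63313896-63314096: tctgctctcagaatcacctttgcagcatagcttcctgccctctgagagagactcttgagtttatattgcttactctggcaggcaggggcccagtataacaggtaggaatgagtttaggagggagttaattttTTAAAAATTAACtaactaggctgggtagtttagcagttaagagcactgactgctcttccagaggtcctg
Intergenic, nearest to Frmpd1, chr4:45165543-45165743: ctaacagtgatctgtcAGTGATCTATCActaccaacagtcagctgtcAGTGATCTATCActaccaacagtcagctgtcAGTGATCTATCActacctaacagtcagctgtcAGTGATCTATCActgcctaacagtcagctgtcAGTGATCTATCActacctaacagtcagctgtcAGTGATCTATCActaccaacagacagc
C130026I21Rik intron, chr1:85068489-85068689: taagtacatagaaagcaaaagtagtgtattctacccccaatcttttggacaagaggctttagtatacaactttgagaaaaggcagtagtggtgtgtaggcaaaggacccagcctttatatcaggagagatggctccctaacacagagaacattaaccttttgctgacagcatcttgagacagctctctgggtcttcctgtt
The Herc4 promoter window overlaps no annotated exon. The sequence nearest to Frmpd1 was a tandem repeat, in which 58.6% of bases equalled the base 32 positions further on.

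Kidney identity was visible in both genotypes, although not for every nephron segment. Of 14 kidney marker genes, 7 to 9 had a promoter summit in the Ctrl mice and 7 to 11 in the db/db mice, among them Hnf4a, Pax8, Lrp2 and Slc12a3 in all 17 mice. The promoters of Slc12a1 (thick ascending limb) and Aqp2 (collecting duct) held a summit in no library. Complete lists held 37402 to 56659 summits in Ctrl mice and 29702 to 51292 in db/db mice. The lists carry no read numbers, so that the depth is unknown. Of the equal-length lists, 89.3 to 95.3% lay in a consensus region in Ctrl mice, against 69.5 to 94.9% in db/db mice, with the lowest values in Db 3 (69.5%), Db 2 (76.3%) and Db 4 (79.0%), which are the mice with the shortest lists.

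To ask which open regions separate the genotypes, the number of mice with a summit was compared for every tested region. Most differences were regions with a summit in a smaller share of db/db than of Ctrl mice. At an unadjusted p under 0.05 (Fisher's exact test, 2-sided), 2536 regions differed (9.25% of those tested), 2204 of them present less often in db/db mice (8.04%) and 332 more often (1.21%). No region passed Benjamini-Hochberg adjustment, the smallest adjusted p being 0.0852 by Fisher's exact test. The smallest p that 5 against 12 mice can give is 0.000162, and 89 regions would have needed it to pass, whereas 52 had it. In the complete lists, 488 of the 2204 lower regions (22.1%) had no summit in any db/db mouse. With 5 against 12 mice, regions of few libraries could only be called lower. A region in 3 Ctrl and no db/db mice passed (Fisher's exact p = 0.0147). One in no Ctrl and 6 db/db mice did not (Fisher's exact p = 0.102), so the lower share follows in part from the group sizes. The share of calls that were lower was 86.9%. It was 73.0% with the 14851 highest-scoring summits per mouse, 73.0% when every library contributed the same number of consensus regions, and 97.3% with all summits scoring at least 5. The higher count fell whichever Ctrl mouse was left out. With 1 Ctrl mouse fewer, the exact test needs a summit in more db/db mice, so the fall does not measure single mice. Leaving out Ctrl 1, 2, 3, 4 or 5 gave 126, 105, 97, 139 and 126 higher regions, and 94.9 to 95.8% of calls were then lower, whereas leaving out 1 db/db mouse gave 256 to 315 higher regions.

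Both treatment arms contributed to these counts. Ctrl mice held 1503 to 2051 of the 2204 lower regions (median 1967) and db/db mice 105 to 641 (median 338), values that follow from how the regions were called. Of the same regions, 1112 were in no Case mouse and 952 in no Dapa mouse. The 332 higher regions were in 178 to 259 per db/db mouse (median 241.5) and in 11 to 36 per Ctrl mouse (median 20). Without Db 2, Db 3 and Db 4, a choice made after seeing the data, 1686 regions were lower and 387 higher.

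Complete separation ran mostly in 1 direction. In 50 regions (0.182% of those tested) all 5 Ctrl mice and none of the 12 db/db mice had a summit, and in 2 regions (0.0073%) the reverse was the case. In the complete lists, 21 of the 50 regions had no summit in any db/db mouse, and 40 had one in at most 1 mouse. The complete lists of Db 4, Db 3 and Db 2 held 29702, 29845 and 31176 summits, so they could add few or none to the 29702 used. Of the 50, 10 were promoters (within 1 kb of a transcription start), 11 lay in introns, 1 in a UTR and 28 between genes. Leaving out a mouse loosens this rule, and the count of separated regions rose from 52 with every omission, to at least 53. It rose most without Ctrl 4 (178), and to 112 without Ctrl 5.

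Promoters of 9 protein-coding genes were among the regions found in every Ctrl and no db/db mouse. Their best rank in any Ctrl mouse was 6681.5, at Pex5l, where rank 1 is the highest-scoring of the 19595 to 27736 consensus regions of a library. At the promoter of Rad51ap2 the Ctrl ranks were 16368.5, 18380, 12534.5, 8793.5 and 8265, with 1 db/db mouse in complete lists. Pex5l, Mtmr7 and Eid2 had the promoters richest in GC (74.8 to 76.4%), whereas the promoter of Akap9, an anchor of protein kinase A at the centrosome and Golgi, had 39.5%. The promoter of Chrm3, the muscarinic M3 receptor, held a summit in 3 Dapa mice in complete lists and in no Case mouse. Herc4, a ubiquitin ligase, had 1 Case and 3 Dapa mice in complete lists, and Smim10l2a, on X, had 1 of each.

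Regions within genes were all intronic but one. Gpc5, a glypican that carries heparan sulphate on the cell surface, held a pair of them. The distal one, at chromosome 14, 116317432 to 116317998, lay 432489 bp from the nearest transcription start. Its Ctrl ranks were 11804, 11565.5, 13876.5, 13015 and 11355.5, a narrow range, and no db/db mouse had it in the complete list either. The same absence from all complete db/db lists held for intronic regions of Nkain2, Acss3 (a mitochondrial acyl-CoA synthetase), Aff2 on X, Robo1 (the Slit receptor) and Arap2. Intronic Clybl and the UTR of Nr1d2, which encodes the clock repressor REV-ERB beta, each had 1 db/db mouse in complete lists. The first 3 intergenic regions in order of mean Ctrl rank were nearest to Gm43718, Gm25773 and Gm6719, with 1 db/db mouse each in complete lists.

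Of the 2 regions found only in db/db mice, 1 remained nearly as clear with the complete lists. The intergenic tandem repeat on chromosome 4 (45165379 to 45165909), 19232 bp from a start of Frmpd1, ranked from 2607.5 to 20283.5 (median 10581) in the 12 db/db mice, and 1 Ctrl mouse had it in its complete list. The intronic region of C130026I21Rik on chromosome 1 (85067930 to 85069055) ranked from 10703 to 22543 (median 18408.5). All 5 Ctrl mice had a summit there in their complete lists, and the region has 4 near-identical copies elsewhere in the genome, between which reads may have been split.

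The next 12 regions by p included few ordinary genes. Usp17le, a deubiquitinase gene of a multicopy family, had an intronic region with 3 near-identical copies in 11 of 12 db/db mice (all but Db 6) and no Ctrl mouse (Fisher's exact p = 0.000970, adjusted 0.164). Regions at or near Gm18692, Gm14412, Gm31371, AC165408.2 and Gm2666 were in all 12 db/db mice and 1 Ctrl mouse, which was Ctrl 5 in every case but Gm2666 (Fisher's exact p = 0.00210 each, adjusted 0.164). In complete lists, 5 Ctrl mice had the regions at Gm18692, Gm31371 and Gm2666. There, 4 Ctrl mice had that at AC165408.2 and 2 those at Gm14412 and Usp17le. All of these regions but that of Gm14412 have 3 to 5 near-identical copies. A group of 6 was in 10 db/db mice and no Ctrl mouse (Fisher's exact p = 0.00339 each, adjusted 0.192). It comprised the UTR of Cxcr5, the receptor that guides B cells to follicles, the promoter of Crybg2, and intergenic regions nearest to Il17b, Gm23497, Gm48351 and Gm43269. Of these 6, the regions near Gm23497 and Gm43269 had no summit in any complete Ctrl list, and the rest had one in 1 to 3 of them.

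**Figure D1:**
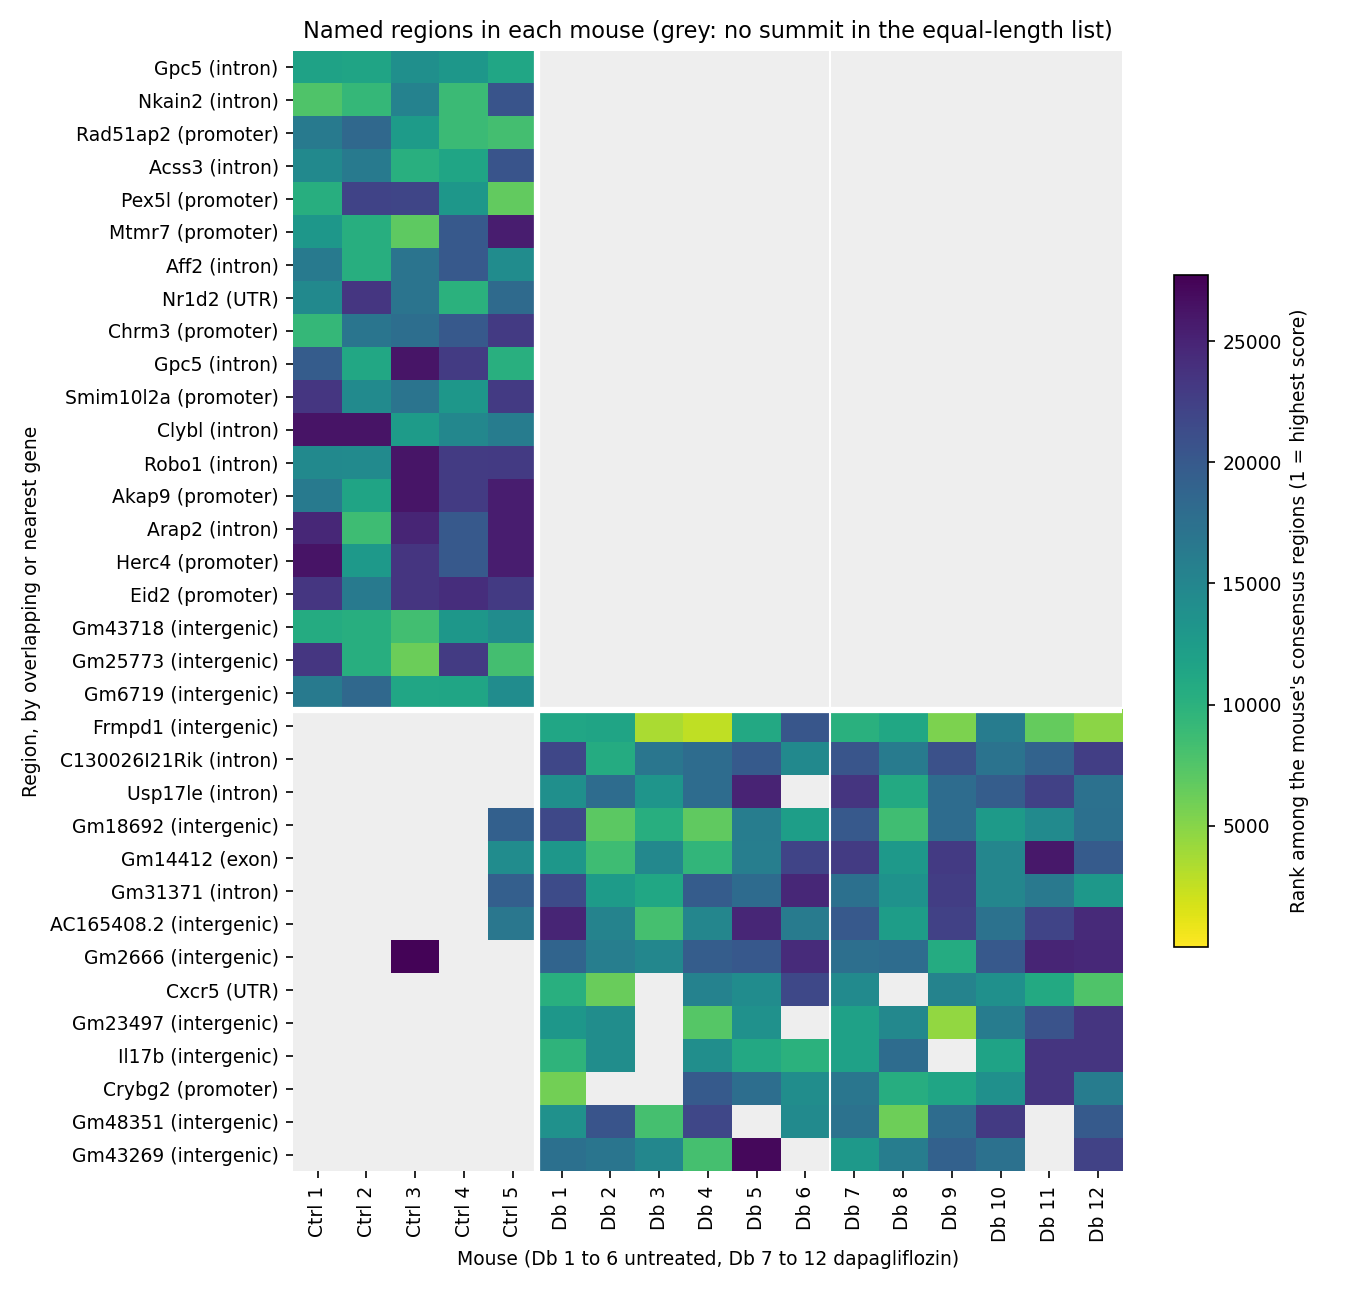
Rank of each named region (rows, by overlapping or nearest gene) among the consensus regions of each mouse (columns), colour scale from 1 to 27736 with light colours for high scores and grey for no summit. The upper 20 rows are filled for the 5 Ctrl mice and grey for all 12 db/db mice, and the lower 14 rows are mostly filled for the db/db mice, 7 of them lacking 1 or 2 of the 12, and mostly grey for the Ctrl mice, with isolated summits in Ctrl 3 and Ctrl 5.

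The sex chromosomes stood apart from the autosomes. On X, 112 of 523 tested regions (21.4%) were lower in db/db mice, on Y 88 of 151 (58.3%), and on the autosomes 2004 of 26735 (7.50%). Most Y regions lie in repeats, 136 of 151 having a near-identical copy. Of the 15 without a copy, 3 were lower, and these were the promoters of the single-copy genes Eif2s3y, Uty and Ddx3y, named after their values were seen. The Uty promoter held a summit in 4 Ctrl and no db/db mice (Fisher's exact p = 0.00210, adjusted 0.164), Eif2s3y in 4 Ctrl mice and Db 8 (p = 0.00986 by the exact test), and Ddx3y in 4 Ctrl mice, Db 3 and Db 8 (p = 0.0276 by the exact test). On X, 107 of 357 regions without a copy (30.0%) were lower. X-linked promoters were lower in 63 of 210 cases (30.0%) and autosomal promoters in 434 of 6402 (6.78%). Of the X promoters, those of Lonrf3 and Zfp280c, also chosen after seeing them, were each in all 5 Ctrl mice and 1 db/db mouse (Fisher's exact p = 0.000970 each), and the promoter of Maoa (monoamine oxidase A) was in 4 Ctrl and no db/db mice (Fisher's exact p = 0.00210).

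**Figure D2:**
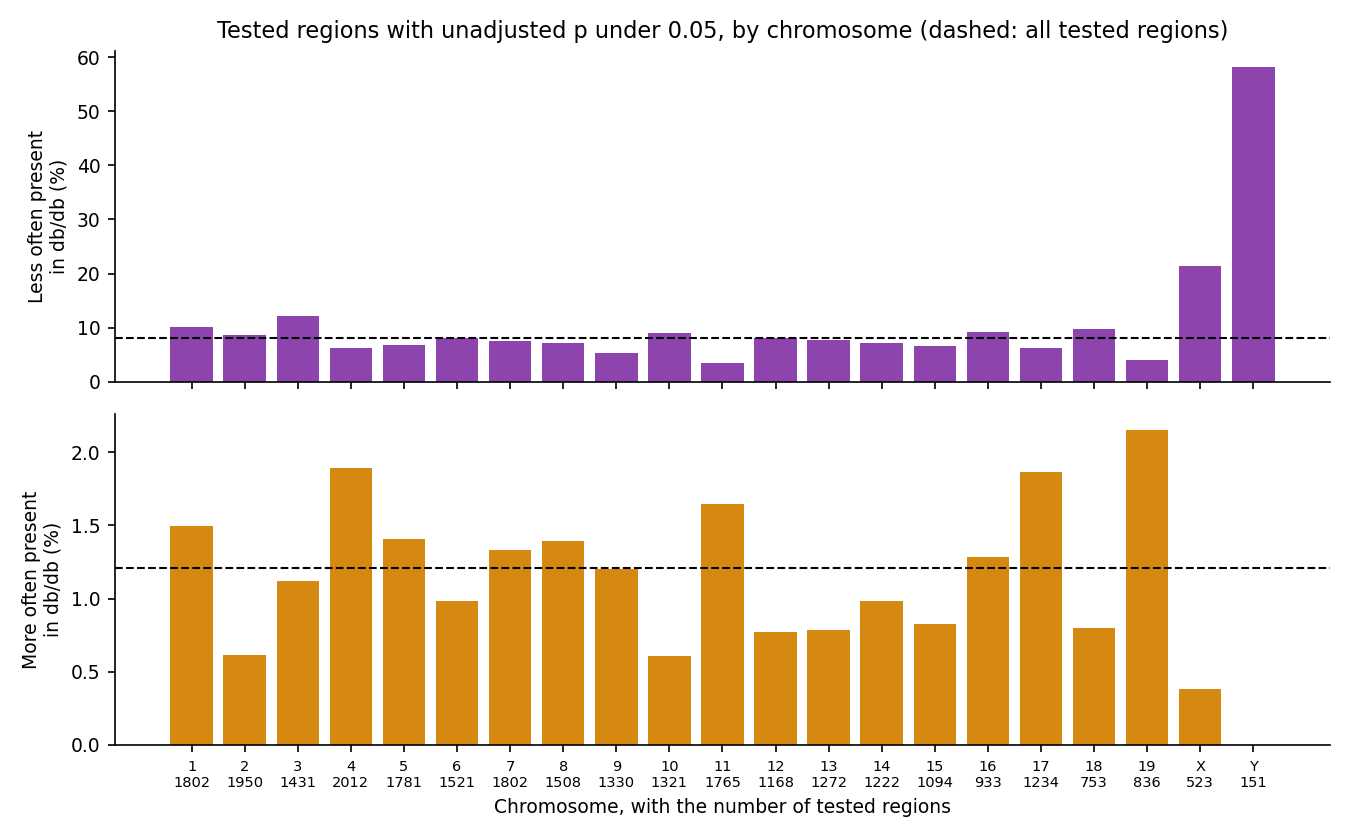
Share of tested regions present less often (upper panel) and more often (lower panel) in db/db mice at an unadjusted p under 0.05, by chromosome, with the number of tested regions under each name; dashed lines mark 8.04% and 1.21%. X (21.4%) and Y (58.3%) exceed every autosome in the upper panel, where chromosome 3 (12.2%) is the highest autosome and chromosome 11 (3.40%) the lowest.

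The same held for the share of summits per mouse. On X lay 1.77% ± 0.17 (SD, n = 5) of the equal-length lists of Ctrl mice and 1.36% ± 0.28 (SD, n = 12) of those of db/db mice (exact permutation test, p = 0.0107, 0.0373 adjusted over 7 values per mouse). The share on Y was 0.455% ± 0.099 against 0.279% ± 0.149 (exact permutation test, p = 0.0322, adjusted 0.0633). The genotypes overlapped through Db 2 (X 1.98%, Y 0.619%) and Db 9 (X 1.84%, Y 0.525%), whose values lay at Ctrl level. All other db/db mice lay below Ctrl 4, the lowest Ctrl mouse (X 1.48%, Y 0.2996%), with Db 1 the nearest to it (X 1.41%, Y 0.276%). These shares were looked at after the counts by chromosome were known.

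Of the values per mouse, the promoter share differed most clearly between the genotypes. Of the equal-length lists, 43.96% ± 0.23 (SD, n = 5) of summits lay at promoters in Ctrl mice and 41.85% ± 1.33 (SD, n = 12) in db/db mice (exact permutation test, p = 0.00339, 0.0136 adjusted over 4 values per mouse). Of the 12 db/db mice, 11 were below the lowest Ctrl mouse (43.70%), and Db 11 (43.71%) was level with it. The order depended on equal list length, because in the complete lists the share was 1.51 percentage points higher in db/db mice (exact permutation p = 0.391). Mice of the same genotype were not shown to share more regions than mice of different genotypes. The mean Jaccard index, shared regions over all regions of a pair, was 0.628 within Ctrl, 0.526 within db/db and 0.536 between them (excess 0.00278, exact permutation p = 0.903). Without Db 2, Db 3 and Db 4 that excess was 0.0204 (exact permutation p = 0.0130). These mice had the lowest mean Jaccard index with their own genotype (0.498, 0.428 and 0.509). Leaving them out raised the overlap within db/db mice by construction, so that p cannot show a difference. Between Case and Dapa mice, none of 7 such values passed the test of a difference (exact permutation tests, adjusted p = 0.701 each, unadjusted 0.290 to 0.701).

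**Figure D3:**
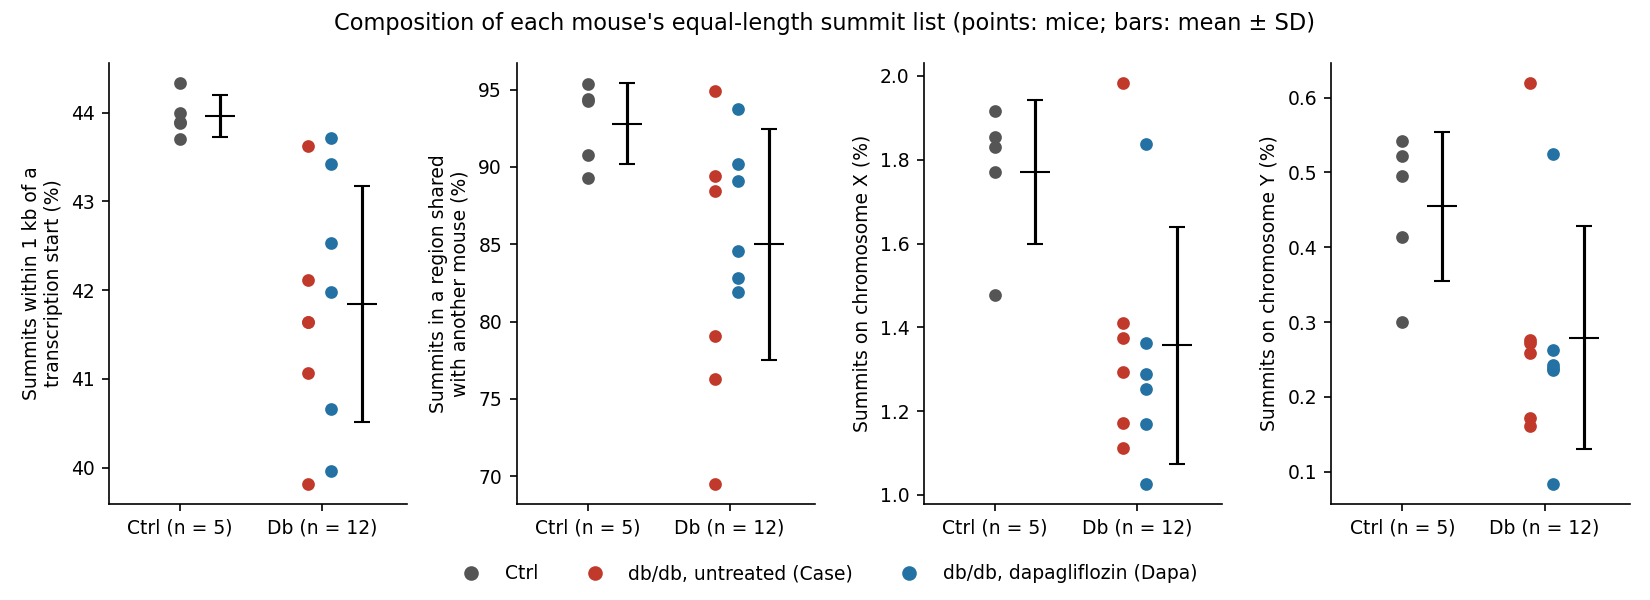
Promoter share, consensus share, X share and Y share (%) of the equal-length summit list of each mouse (points; red untreated and blue dapagliflozin-treated db/db mice) with mean ± SD per genotype; the vertical axes do not start at 0. Promoter shares of 11 of 12 db/db mice lie below all Ctrl mice, and Db 2 and Db 9 lie at Ctrl level for X and Y.

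Lower calls were most frequent far from transcription starts and at low GC, but not evenly so. Of the 2204, 40.2% were intergenic, against 32.8% of tested regions, and the median distance to a transcription start was 10115 bp against 6030 bp. By distance, 7.56% of regions within 1 kb of a start were lower, 5.79% at 1 to 10 kb, 9.47% at 10 to 50 kb and 15.0% beyond, and promoters made up 500 of the 2204. Median GC content of the central 301 bases was 46.8% in lower, 52.8% in higher and 51.2% in tested regions. Under 40% GC, 365 of 1419 regions (25.7%) were lower, whereas 412 of 10935 (3.77%) were lower at 50 to 60% GC. The share was 10.6% at 40 to 50% GC and 6.63% (289 of 4358) at 60% or more. On the autosomes alone, 360 of 1399 regions (25.7%) under 40% GC were lower. GC content also moved with genotype per mouse, the mean over each mouse's regions being 56.1% ± 0.4 (SD, n = 5) in Ctrl and 56.8% ± 0.8 (SD, n = 12) in db/db mice (exact permutation p = 0.0498, 0.0697 adjusted over 7 values); its part in the lower calls was not tested.

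Long genes and gene-poor windows held many lower regions. Among introns of protein-coding genes, 133 of 914 tested regions (14.6%) in genes over 500 kb were lower, compared with 98 of 2524 (3.88%) in genes up to 50 kb. All 5 tested regions of Dgkb, a diacylglycerol kinase gene on chromosome 12, were lower, as were 4 of 5 in Sntg1, Naaladl2 and Gabrg3, 4 of 6 in Mpped2 and Asap1, 4 of 8 in Tenm4 and 4 of 12 in Cdkal1 and Grid1; these genes were listed for having at least 4. Over 449 windows of 5 Mb with at least 20 tested regions, the median share of lower regions was 7.5%. The highest, 11 of 23 (47.8%), was the window of chromosome 12 from 35 to 40 Mb that contains Dgkb. The 25 windows with 25% or more had a median of 17 protein-coding genes, against 34 over all windows.

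**Figure D4:**
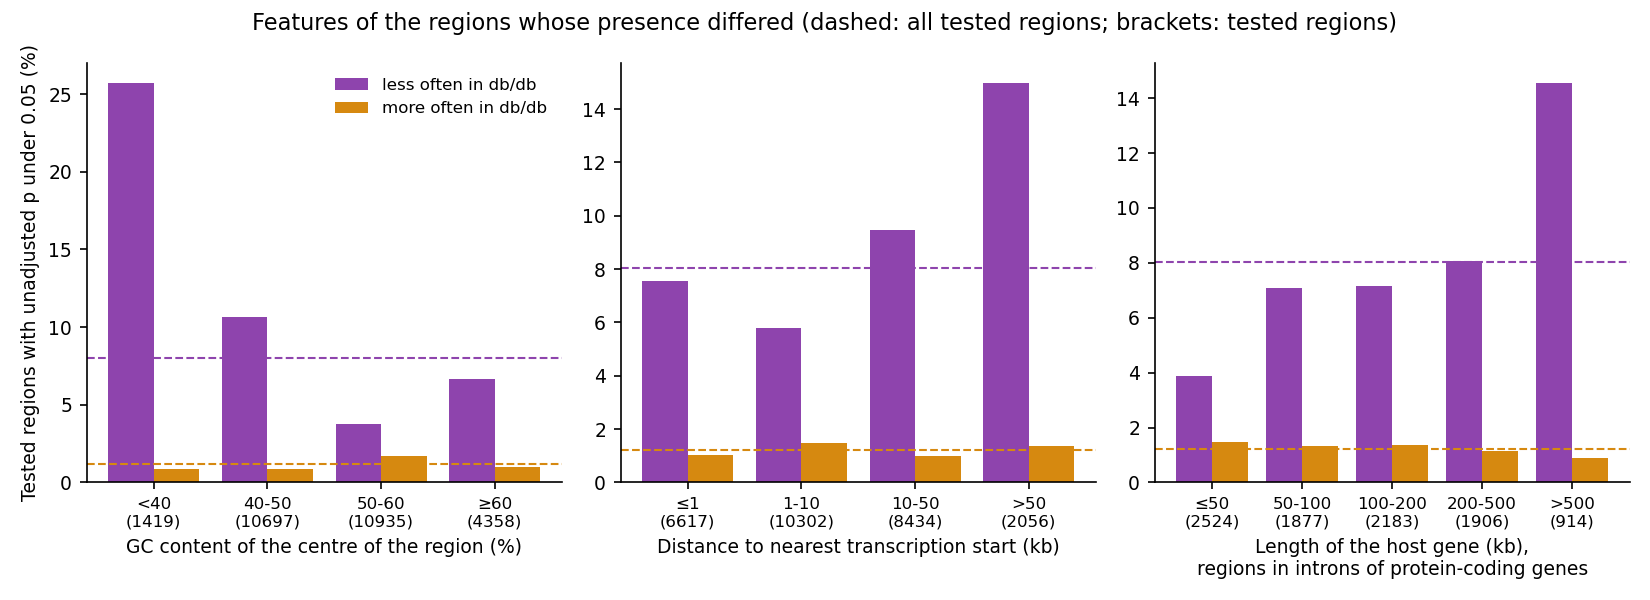
Share of tested regions called lower (purple) or higher (orange) in db/db mice by GC content, distance to a transcription start and, for introns, length of the host gene, with the tested regions in brackets and the overall shares dashed. Lower calls are most frequent under 40% GC (25.7%), beyond 50 kb from a start (15.0%) and in genes over 500 kb (14.6%), while higher calls stay between 0.846% and 1.68%.

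Higher regions lay more often than lower ones in duplicated sequence. A near-identical copy elsewhere in the genome (95% identity over at least 240 of 301 bases) existed for 87 of 332 higher regions (26.2%), 169 of 2204 lower regions (7.67%) and 12.8% of tested regions. On the autosomes, regions with a copy were higher in 2.69% and lower in 2.47% of cases, and regions without a copy in 1.04% and 8.18%. Higher regions also clustered. In chromosome 1, 84978852 to 85658699, around Sp100, Sp110 and C130026I21Rik, 13 of 120 tested regions were higher and none was lower; all 13 have copies and all had a summit in at least 1 complete Ctrl list. On chromosome 4, 145404788 to 147417655, which holds zinc finger genes such as Zfp981, 11 of 180 were higher and none lower. Another group, without copies, lay on chromosome 19 between 3623642 and 6492539, where 11 of 120 were higher and 4 lower, with Malat1, Batf2, Cfl1 and Lrp5 among the nearest genes. These groups were picked by their counts.

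Short sequence motifs, searched on both strands of the central 301 bases, occurred at different rates. The AP-1 motif TGANTCA, bound by Fos and Jun, was in 9.94% of lower, 14.8% of higher and 9.86% of tested regions. The HNF1 motif, of factors that drive tubular genes, was in 35 lower regions (1.59%), 1 higher region (0.301%) and 0.898% of tested regions. The HNF4 motif CAAAGTCCA was in 3.99%, 1.81% and 2.75%, respectively. The CTCF motif was in 1.09%, 1.51% and 2.63%. These are counts of letters, and nothing was measured of factor binding. The HNF1 motif is rich in A and T and the CTCF motif in G and C. Median GC content was 46.8% in lower, 52.8% in higher and 51.2% in tested regions, and the motif rates were not compared at equal GC content.

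Few regions at tubular transport genes passed the test. Gene windows ran from 2 kb upstream to the end of the gene, and over all genes 7.12% of 19044 regions were lower and 1.21% higher. In the list of proximal tubule transport genes, 3 of 79 regions were lower (3.80%) and 1 higher (1.27%), with a median difference of -5 percentage points in the share of mice with a summit (db/db minus Ctrl), against -6.67 over all genes. The lower ones were at the promoter of Slc22a12 (the urate transporter URAT1; 5 of 5 Ctrl and 2 of 12 db/db mice, Fisher's exact p = 0.00339), the promoter of Ggt1 (gamma-glutamyltransferase of the brush border; 5 and 3 mice, exact p = 0.00905) and an intron of Slc22a2 (the cation transporter OCT2; 5 and 5 mice, exact p = 0.0441). An intronic region of Lrp2, the endocytic receptor megalin, was in no Ctrl and 8 db/db mice (exact p = 0.0294). Promoter summits were found at a median of 80% of the list in Ctrl mice (80 to 86.7%) and of 66.7% in db/db mice (53.3 to 86.7%), lowest in Db 3. Means (db/db minus Ctrl) differed by -11.2 points here, -5.06 for renal transcription factors and -3.17 for housekeeping genes. They were higher in db/db mice for the loop and distal, podocyte and endothelium, interferon and leukocyte lists.

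Other nephron and kidney lists also gave few calls. In the loop, distal tubule and collecting duct list, 1 of 28 regions was higher, in an intron of the water channel gene Aqp3 (0 and 7 mice, Fisher's exact p = 0.0441), and none was lower. In the podocyte and endothelium list, 1 of 24 was lower, in an intron of Magi2, a scaffold of the slit diaphragm (5 and 1 mice, Fisher's exact p = 0.000970). Among renal transcription factors 4 of 76 were lower, among them regions in introns of Sim1 (3 and 0 mice, exact p = 0.0147), Cux1 (5 and 4 mice, exact p = 0.0294) and Esrrg. The Esrrg region was in 5 Ctrl, 0 Case and 5 Dapa mice (exact p = 0.0441). The single higher one, in an intron of Pax2, was in 0 Ctrl and 7 db/db mice (exact p = 0.0441). No adjusted p in these lists was below 0.164.

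Metabolic lists had shares of lower regions on either side of the 7.12% of all genes. In the list of glucose, insulin and leptin signalling 7 of 70 regions were lower (10%) and 1 higher, with a median difference of -5 points against -6.67 over all genes, and the genes with lower regions were Insr, Pfkfb3, Stat3, Grb10 and Mtor. Intronic regions of Insr (insulin receptor) and Pfkfb3 (a regulator of glycolysis) and the promoter of Stat3, the factor activated by the leptin receptor, were each in 5 of 5 Ctrl and 1 of 12 db/db mice (Fisher's exact p = 0.000970 each, adjusted 0.164). The Grb10 promoter, of an adaptor that restrains the insulin receptor, was in 4 Ctrl and no db/db mice (Fisher's exact p = 0.00210), and an intron of Mtor in 3 and none (exact p = 0.0147). In the fatty acid oxidation and lipid list, 2 of 39 were lower (5.13%), both at the fatty acid carrier Cd36 (promoter 3 and 0 mice, exact p = 0.0147), and 1 was higher, in an intron of Acaca, the acetyl-CoA carboxylase that opens fatty acid synthesis (0 and 7 mice, exact p = 0.0441).

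At Lepr itself the difference ran the other way. The gene carried at least 1 summit in 1 of 5 Ctrl and 11 of 12 db/db mice (Fisher's exact p = 0.00986), and in 3 and 11 in the complete lists. Its tested region, an intronic stretch on chromosome 4 (101769188 to 101770365) 1564 bp from a start, was in no Ctrl mouse and in Db 2, 3, 4, 5, 6, 8, 10 and 11, at ranks from 15868 to 25231 (Fisher's exact p = 0.0294, adjusted 0.386). Of the 4 other genes described for every mouse, Isg15 (a ubiquitin-like interferon product) had no summit in any of the 17 complete lists. Btla (an inhibitory lymphocyte receptor) had 1 in 2 db/db mice, 1 per arm. Csf2rb (the shared beta chain of cytokine receptors) had at least 1 in 3 Case, 1 Dapa and no Ctrl mouse (Fisher's exact p = 0.261), but in 5 Ctrl and 10 db/db mice in complete lists. Slc5a2 had at least 1 in 4 Ctrl, 1 Case and 4 Dapa mice (Fisher's exact p = 0.294).

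Interferon and antigen presentation genes were the list with the largest median shift towards db/db mice. It was 16.7 points over 50 tested regions, where 2 were lower (4%) and 3 higher (6%). Of the 50 regions, 21 lay at the neighbouring genes Sp100, Sp110 and Sp140 alone, with a median shift of 30 points. The median of the list without them was not computed. A region at the adjoining Sp110 and Sp140 promoters was in 1 Ctrl and 11 db/db mice (Fisher's exact p = 0.00986) and one in an intron of Sp100 in 2 and 12 (exact p = 0.0147). These nuclear body genes lie in the duplicated part of chromosome 1 given above, and all 5 complete Ctrl lists held both regions. The promoter of Ifit3, an interferon-induced antiviral gene whose promoter has 1 near-identical copy, was in no Ctrl mouse and in Db 1, 2, 3, 5, 7, 8, 10 and 12 (Fisher's exact p = 0.0294, adjusted 0.386). Promoter summits were found at 41.0 to 59.0% of the list in Ctrl mice and at 41.0 to 74.4% in db/db mice.

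Leukocyte genes had few promoter summits in most mice. None of the 11 tested leukocyte regions passed the test. Promoter summits were at 0 to 4% of the 25 leukocyte genes in Ctrl mice, and in db/db mice at a median of 4% with high values in Db 3 (44%) and Db 8 (24%), whose interferon shares were 71.8% and 69.2%. Db 10 followed with 12% and an interferon share of 51.3%, and Db 4, with 8%, had the lowest interferon share of the db/db mice (41.0%). Db 5 had the highest (74.4%) with a leukocyte share of 4%. Of 6 defining leukocyte markers, db/db mice had promoter summits at 0 to 2 and Ctrl mice at none, and Ptprc and Adgre1 had none in any mouse. The part of leukocytes in the interferon values was not tested.

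**Figure D5:**
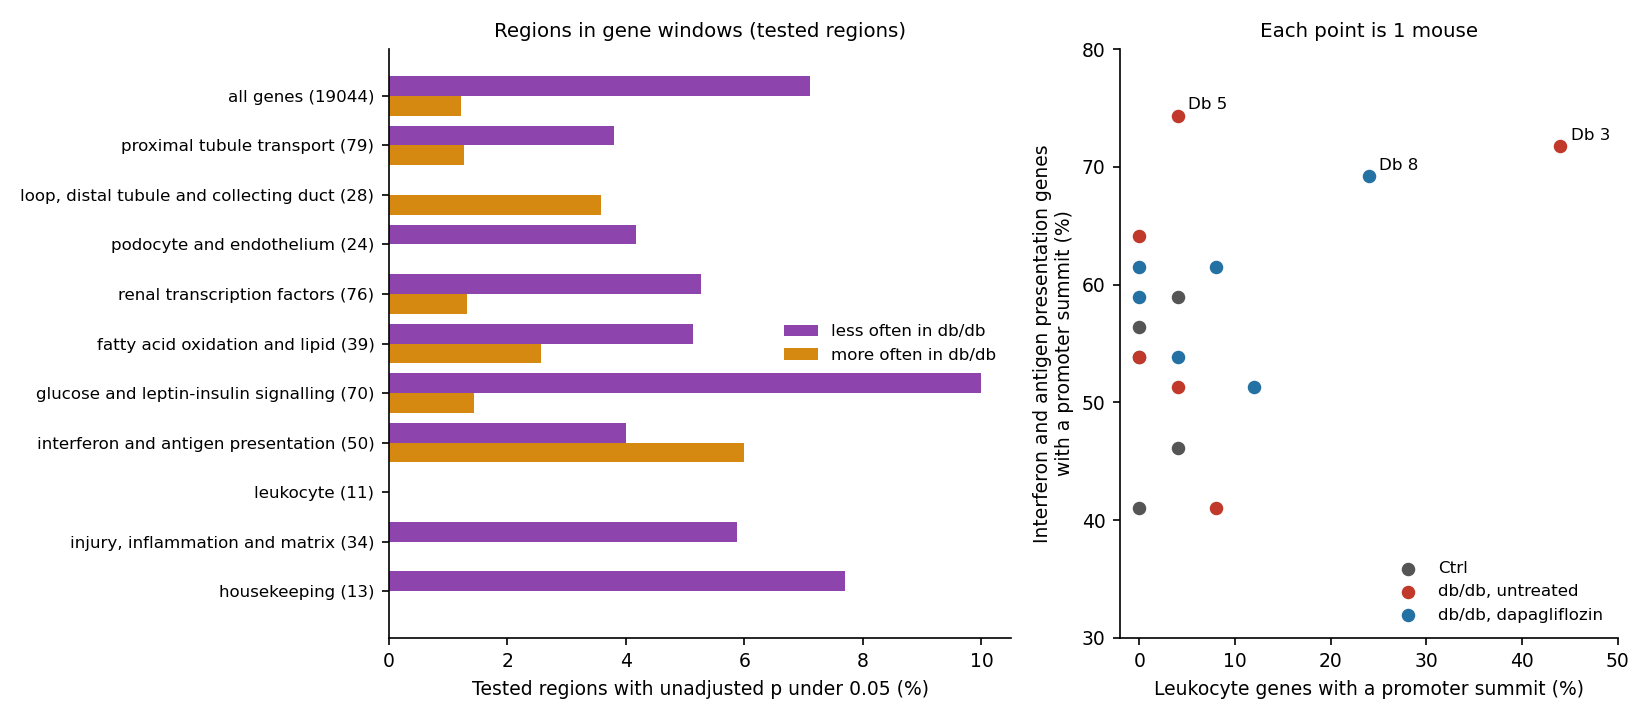
Left, share of tested regions called lower (purple) or higher (orange) in db/db mice in each gene list shown, with the tested regions in brackets. Right, share of interferon and antigen presentation genes against share of leukocyte genes with a promoter summit in each mouse (points); Db 3 (44%) and Db 8 (24%) stand to the right, and Db 5 is high on the vertical axis alone.

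Matrix and housekeeping genes gave few calls. In the injury, inflammation and matrix list 2 of 34 regions were lower, in introns of Col3a1 (a fibrillar collagen; 3 and 0 mice, Fisher's exact p = 0.0147) and of complement C3 (4 and 2 mice, exact p = 0.0276), and none was higher. Among housekeeping genes 1 of 13 was lower, the promoter of X-linked Hprt (5 and 5 mice, exact p = 0.0441). Of symbol families, glypicans had 5 of 22 regions lower (22.7%), 3 in Gpc5 and 1 each in X-linked Gpc3 and Gpc4. Cytochrome P450 genes had 7 of 49 lower (14.3%) and none higher, 2 of them in Cyp51, of sterol synthesis. Collagens had 6 of 63 lower and 3 higher, 2 of the latter in Col27a1. Solute carriers, with 28 of 461 lower (6.07%) and 6 higher (1.30%), zinc finger genes (7.30% lower of 315) and potassium channels (7.32% lower of 82) were near the 7.12% of all genes, and none of 18 regions at MHC genes passed the test.

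Ranking the regions within each mouse used the order of scores rather than presence alone. By an exact permutation rank-sum test over all consensus regions, 5846 differed at an unadjusted p under 0.05 (11.2%), 4473 lower (8.54%) and 1373 higher (2.62%) in db/db mice, and none passed adjustment (smallest adjusted p 0.0564, rank-sum permutation test). By rank, promoters were lower more often (10.9%, with 2.75% higher) than introns (6.98%) or intergenic regions (8.13%), whereas by presence intergenic regions had the highest share (9.84%). On X, 27.2% were lower by rank. Rank numbers were not scaled to the number of consensus regions, which was 25356 to 27736 in Ctrl and 19595 to 27362 in db/db mice. The same relative position thus gives a smaller rank number in a mouse with fewer regions. The part of this in the rank calls was not tested. The test was close to its threshold: 291 regions passed when only regions of at least 3 libraries were kept, and 282 with all summits scoring at least 5.

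Single promoters showed what the ranks added. The promoter of Zscan18, a zinc finger gene, ranked 531 to 2412 in the 5 Ctrl mice (median 1216), and 3 db/db mice had it, the best at 11028.5 (exact permutation p = 0.000162, adjusted 0.0564). The same p was reached by Rad51ap2, Pdk3 (a pyruvate dehydrogenase kinase, on X), Myb (a haematopoietic transcription factor), Pex5l, Mtmr7, Pbdc1 and B630019K06Rik. Of these, Rad51ap2, Pex5l and Mtmr7 were already completely separated by presence, from which this rank p follows. In the other direction, the promoter of Acsl1, which activates long-chain fatty acids, ranked 18928.5 to 26261 in Ctrl mice (median 20536.5). In db/db mice it ranked 4601 to 15868 (median 12776.2), with no overlap in rank number (exact permutation p = 0.000323, adjusted 0.0564). Relative to the number of regions the groups overlapped, since Db 3 had it at 15868 of 19595 and Ctrl 3 at 18928.5 of 27736. The promoter of Phf21a was high in all mice, at ranks 188.5 to 1200 in Ctrl and 94 to 188 in db/db mice. Of its central bases, 83.7% are masked as repeats in the reference. The promoter of Cltc, the clathrin heavy chain, ranked 5087.5 to 8024.5 in Ctrl and 446.5 to 5020.5 in db/db mice. In rank number the groups did not overlap at Cyth1 either, which 4 Ctrl mice had, and at Gm10717, which has 58 near-identical copies. At Cyth1 they did overlap relative to the number of regions (Db 10 at 18591.5 of 23703, Ctrl 1 at 20633 of 27440). Ifit3b, whose promoter also has 1 near-identical copy, ranked 2307 to 22288.5 in db/db mice, and 3 Ctrl mice had it, the best at 22048 (exact permutation p = 0.000646, adjusted 0.0756), and Mafg and Pts had the same p.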

How the data were processed

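ATAC-seq libraries of 17 mouse kidneys were compared by genotype, as given in the labels. The authors aligned reads to mm10 with Bowtie2 by the ENCODE procedure, dropped duplicate and blacklisted reads, shifted the ends for the transposase and called peaks per library with MACS2. The deposited summit lists hold single positions and a −log10 score (lowest value 2.0012), and whether it stands for p or q values is not given in the sources used here. Scores were used only to order summits within a library. The lists hold no reads, so that the differential test of the study (DiffBind) could not be run, and HOMER was not used. Summits tied at the cutoff, up to 4351 in a library, were taken in seeded random order.

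Regions were annotated with GENCODE M21 (mm10) as promoter (within 1 kb of a start), exon, UTR, intron or intergenic. Near-identical copies were found with minimap2 2.31 and sequences read with samtools 1.23.1 and pysam 0.24.0. Presence was tested per region with Fisher's exact test, and ranks, absent regions tied last, with an exact permutation rank-sum test over all 6188 relabellings, both 2-sided with Benjamini-Hochberg adjustment. Presence was adjusted over the 27409 regions that could reach an unadjusted p of 0.05, and ranks over all consensus regions. Values per mouse were compared by exact permutation tests on means. Python 3.11.15, numpy 2.4.6, scipy 1.17.1, pandas 2.3.3 and matplotlib 3.10.9 were used, and the tests were checked on simulated data. Nothing in the labels says more on the independence of the mice, and p-values measure the spread between these samples.

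The members and gene lists were chosen with earlier results of these data known. Named were all completely separated higher regions, the separated lower ones at protein-coding genes with an ordinary symbol plus 3 intergenic ones, the next 12 higher regions, 3 genes per list and direction, 8 promoters per direction by rank, and Isg15, Btla, Csf2rb, Slc5a2 and Lepr; further genes were named after their values were seen, where list counts were 5 or fewer or as stated. Some genes and sequences that these rules select are not reported here. In the interferon list, 1 of 40 genes was not matched in the annotation. Alternatives were other list lengths, scores, extensions and gene windows, regions in at least 3 libraries, autosomes, regions without copies, leaving out each mouse and pairing by replicate number.

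Mice with the same number were not paired: the correlations of their deviations from the group means were 0.0022, -0.0126, -0.0554, 0.0221 and -0.0503.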

Additional observations from a re-analysis of the deposited data

Results flagged for a closer look

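Each of 9 values per mouse was searched for a mouse standing apart by Dixon's criterion within the Ctrl, Case and Dapa groups, 27 searches in all, of which about 1 in 20 is marked by chance. Marked were 3 values. Db 2 was higher than the remaining Case mice on X (1.98% of summits) and Y (0.619%). Db 8 stood above the other Dapa mice in the mean GC content of its regions (57.7%).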

How the results depend on the processing

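No region passed adjustment for presence under any alternative. For ranks, 282 passed with scores of at least 5 and 291 with regions of at least 3 libraries. The unadjusted presence count was 1235 with 14851 summits per mouse and 1647 with equal numbers of consensus regions, and the rank count 3159 with the shorter lists. Completely separated regions numbered 13 with the shorter lists, 26 with equal numbers of consensus regions, and 606 when 1 mouse per genotype could go against the pattern. Of the 52, 20 were still separated in the complete lists, 45 with ties in genome order and 46 with all ties kept. Leaving out each mouse gave 2207 to 3046 unadjusted presence calls (97 to 139 higher without 1 Ctrl mouse, against 332), 4103 to 5866 rank calls, 53 to 178 separated regions, and 0 adjusted calls. It gave differences (db/db minus Ctrl) of -8518 to -3704 in list length, -2.28 to -1.93 points in promoter share, -8.76 to -6.82 in consensus share (exact permutation p = 0.0172 to 0.0934), -0.486 to -0.377 on X, -0.214 to -0.153 on Y (exact permutation p = 0.00321 to 0.0736) and -0.00748 to 0.0111 in overlap excess, which was negative without Ctrl 1, 2, 3 or 5.

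The consensus share differed by -3.92 with the shorter lists, -1.65 with complete lists, -0.897 with scores of at least 5 and -5.44 without Db 2, Db 3 and Db 4. The promoter share differed by 1.51 with complete lists, 4.17 with scores of at least 5 and -1.67 with promoters of 3 kb, the list length by -6058 with scores of at least 5, the overlap excess was 0.0204 without those 3 mice, and the Y share differed by -0.141 with complete lists. With the replicate block (Ctrl 1 to 5 against Db 1 to 5), whose smallest p is 0.0625, 0 regions could pass by presence or rank, 276 separated, and the differences were -2.40 in promoter share, -11.2 in consensus share, -0.336 on X and -0.137 on Y; 0 Ctrl mice correlated best with their own number. Of 58 named regions, 56 kept an unadjusted p under 0.05 with either treatment of ties, 51 without Db 2, 3 and 4, 41 with scores of at least 5, 40 in complete lists, 31 with equal numbers of consensus regions (53 found) and 13 with the shorter lists (40 found); none changed direction where found. Of 44 gene list counts under other gene windows, 32 stayed within 1.5 times and 12 fell, all with windows of 1 kb around transcription starts, which hold fewer regions. The causes were not tested, and without read numbers the role of depth is unknown.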
